A study of Homo sapiens with 14 samples.

Results

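The genes described here are the centrosomal CEP family, followed in PANC-1 cells given proanthocyanidins. A gene was a member if its symbol in the deposited table of counts was CEP followed by a number, with at most 1 letter and 1 further digit after it, and if the table listed it as protein coding. The rule used no measured value, but the family was chosen with earlier results of these data known. It found 32 of the 28120 genes in the table, and all 32 had enough reads to be tested. PANC-1 is an established epithelial line from a human pancreatic ductal carcinoma, and proanthocyanidins (PA) are condensed tannins, polymers of flavanol units found in grape seed and other plants.

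RNA was sequenced from 14 libraries in 7 groups of 2. The PA groups were harvested 3, 12 and 24 h after exposure to 20 µg/ml PA. The DMSO groups, which received the solvent alone, were harvested at the same 3 times and at 0 h, and no PA group was taken at 0 h. All groups were the same unmodified line grown as monolayers. The labels do not say that replicates came from separate cultures, so the p-values below measure only the spread between these libraries, which may be technical. The libraries held between 26403984 and 35213154 reads, and members had between 33 and 14102 reads in a library. The 6 epithelial markers (keratins, EPCAM and CDH1) summed to 5304 to 17544 counts per 1e6 reads in each library, without TMM scaling. On that scale the 4 endothelial and 5 leukocyte markers summed to at most 1.38 and 4.56. The 6 fibroblast markers summed to 9.01 to 30.1. Levels given below as CPM are counts per 1e6 reads of the library size after TMM scaling. Since these are bulk libraries, fewer cells of a kind and less RNA per cell cannot be told apart.

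Centrosomes are built around a pair of centrioles, which are copied once in each cell cycle and recruit a surrounding matrix that nucleates microtubules. In resting or differentiated cells the older centriole docks at the membrane through its distal appendages and becomes the base of a primary cilium, whose entry is guarded by the transition zone. CEP proteins take part in each of these steps: some copy the centriole or set its length, some form the appendages or the linker between centrioles, some belong to the satellites that move around the centrosome, and CEP55 works at the midbody during the last step of cell division. The shared name reflects where the proteins were found, and most members are not related in sequence.

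Members with different changes at 3 h also differed in base composition, so a stretch of coding sequence is shown for 2 members with contrasting values. CEP290, which fell most at 3 h, has a GC content of 35.9% in its longest basic transcript, and CEP131, whose level hardly moved at 3 h, has 65.6%. Each window is 120 bases within 1 coding exon, picked because its GC content is nearest to that of the whole coding sequence, with every G and C in capitals. The windows are read on the minus strand from the GENCODE 29 transcripts (GRCh38). The CEP290 window lies in exon 6 at chr12:88136649-88136768 and has 42 G or C bases (35%), and the CEP131 window lies in exon 5 at chr17:81206752-81206871 and has 78 (65%).
CEP290: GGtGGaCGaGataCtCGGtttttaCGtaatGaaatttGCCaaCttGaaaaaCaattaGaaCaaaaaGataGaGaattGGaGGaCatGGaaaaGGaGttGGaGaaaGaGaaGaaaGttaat
CEP131: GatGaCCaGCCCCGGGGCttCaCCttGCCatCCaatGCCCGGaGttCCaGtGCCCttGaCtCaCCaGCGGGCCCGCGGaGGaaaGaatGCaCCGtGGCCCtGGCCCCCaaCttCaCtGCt

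Without treatment the family was far from even in level. Scaled to gene length in the authors' RPKM (reads scaled to gene length and library size), the mean at DMSO 0 h was 132 for CEP55 and 24.2 for CEP70, the next in order. At the other end were CEP41 at 0.39, CEP44 at 0.74, CEP68 at 0.98 and CEP85L at 1.02. CEP112, the next above these, had 1.79 RPKM. The members together took 1857 and 1832 CPM in the DMSO 0 h libraries, and between 1732 and 1945 CPM in the 6 later DMSO libraries.

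In the solvent arm the family did not move over the first 3 h by more than could be detected. Between DMSO at 0 h and DMSO at 3 h no member passed an adjusted p of 0.05 in edgeR's quasi-likelihood test, the background being 0.0% of the 15181 genes tested. At an unadjusted p under 0.05 there were 0 members and 215 genes in all, and DESeq2 called 0 members. The median log2 difference of the members was 0.03. The 4 members with the smallest p, CEP131, CEP250, CEP68 and CEP170B, differed by 0.29, 0.20, -0.25 and 0.24.

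After 3 h of PA, 7 members had fallen and none had risen. CEP290, which gates the ciliary transition zone, was 7.92-fold lower, with a log2 change of -2.99. CEP162, which ties the transition zone to the axoneme, had a log2 change of -2.31. CEP83, the innermost layer of the distal appendages, CEP295 and CEP152, which act in centriole assembly, CEP112 and CEP350, which binds microtubules near the subdistal appendages, fell by 1.30 to 1.67. These 7 of 32 stand against a background of 1.72% of tested genes called in either direction, 1.58% lower and 0.138% higher. Each of the 7 also lies in a wider set of 22 members in which both PA libraries were below both DMSO libraries, against 27.9% of all tested genes. All 22 had an unadjusted p under 0.05, as had 2600 of all tested genes. In only 2 members were both PA libraries above both DMSO libraries, against 26.7% of genes. The median change was -0.81 for the family and -0.01 for all tested genes. Epithelial markers summed to 5304 to 6236 CPM in the DMSO 3 h libraries and to 6962 to 8431 CPM in the PA 3 h libraries, and their part in the result was not tested.

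**Figure D1:**
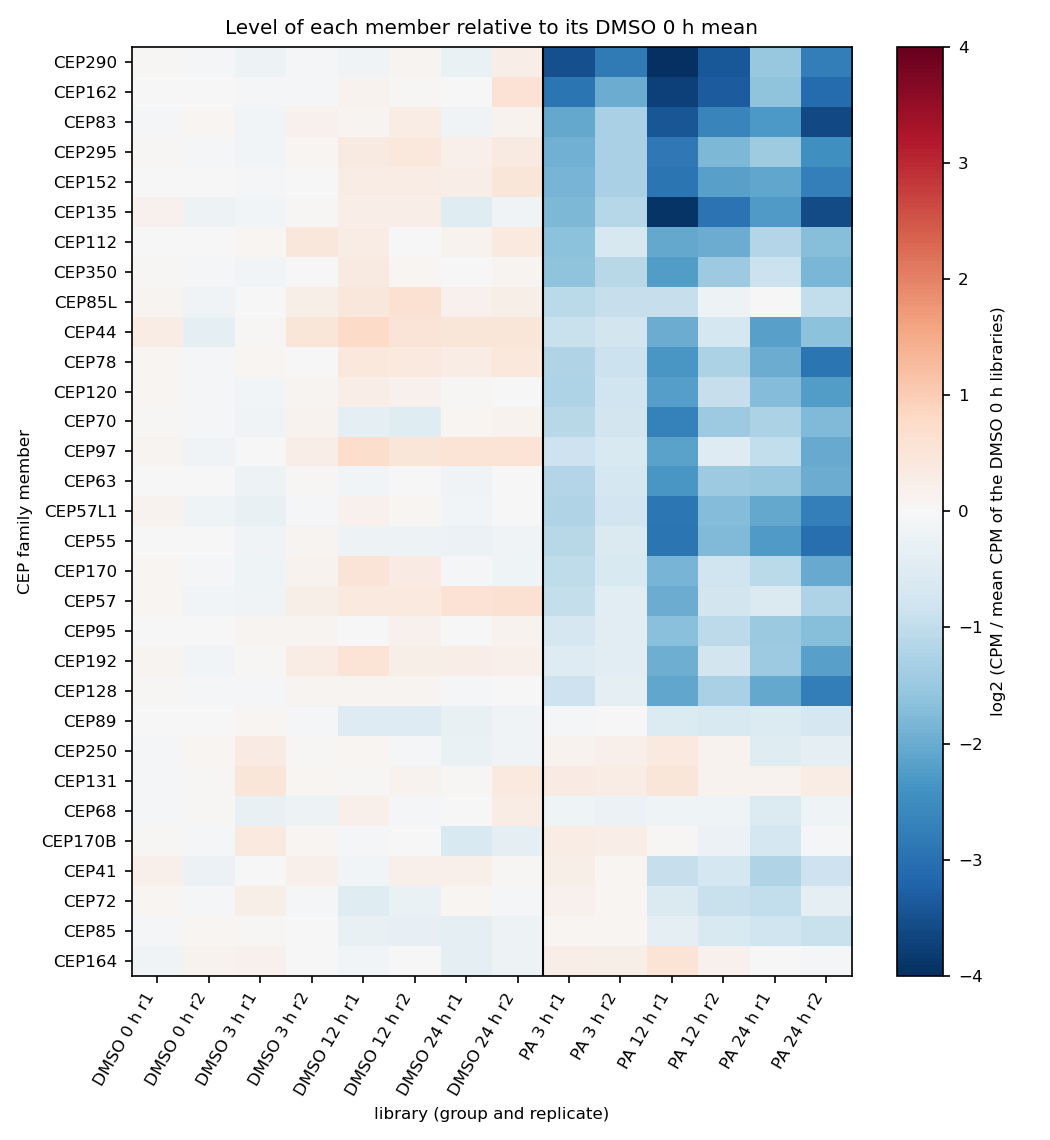
Colour gives the level of 31 of the 32 members (lines) in each of the 14 libraries (columns) as log2 of its CPM over its mean CPM at DMSO 0 h, with the DMSO libraries left of the black line, the PA libraries right of it, and r1 and r2 for the replicates. The upper 22 members were lower in both PA 3 h libraries than in both DMSO 3 h libraries, and the others stayed near their starting level at 3 h.

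The ciliary pair showed the widest gaps. CEP290 was at 40.4 and 44.8 CPM in the DMSO 3 h libraries (replicates 1 and 2, in that order throughout) and at 4.11 and 6.6 CPM after PA. The change was -2.99 ± 0.356 (SE, n = 2 libraries a group, edgeR adjusted p = 0.000705). The groups lay far apart, the higher PA library being well under the lower DMSO library. CEP162 was at 15.1 and 15.3 CPM in DMSO and at 2.09 and 3.99 CPM in PA, a change of -2.31 ± 0.366 (adjusted p = 0.00495). CEP41, which is needed for tubulin glutamylation in the axoneme, had 3.95 and 4.53 CPM against 4.58 and 4.16, and its groups overlapped. Of the 4 ciliary members, 2 fell.

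Among the 12 members that act in centriole duplication and length, 2 fell at 3 h and the group's median change was -0.93. CEP152, the scaffold that brings the kinase PLK4 to the centriole, had 36.3 and 38.1 CPM in DMSO and 10.5 and 15.4 CPM in PA, a change of -1.52 ± 0.248 (adjusted p = 0.00605). CEP295, which lets a new centriole mature into one that can recruit matrix, went from 49.0 and 55.7 CPM to 14 and 21.6 CPM, a change of -1.55 ± 0.322 (adjusted p = 0.0265). In both genes the PA libraries were below the DMSO libraries with a wide gap. CEP135, a protein of the cartwheel, lay just outside the threshold: its values were 16.5 and 18.3 CPM against 5.12 and 8.18, a change of -1.38 with an adjusted p of 0.0507. CEP192, CEP63, CEP57, CEP57L1, CEP97, CEP120, CEP78 and CEP44 had changes between -0.64 and -1.08 and adjusted p between 0.0926 and 0.289. CEP85, which binds STIL, stood alone in this group with 83.3 and 82.8 CPM in DMSO and 86.4 and 86.0 CPM in PA.

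The 7 members grouped with the distal and subdistal appendages divided in the same way. CEP83, the root of the distal appendage, had 45.8 and 56.3 CPM in DMSO and 11.9 and 20.2 CPM in PA (-1.67 ± 0.341, adjusted p = 0.026). CEP112 went from 8.11 and 10.4 CPM to 2.43 and 4.91 CPM (-1.33 ± 0.277, adjusted p = 0.0276), and CEP350 from 41.5 and 46.1 CPM to 14.8 and 20.7 CPM (-1.30 ± 0.287, adjusted p = 0.0349). The groups did not overlap in any of these 3 genes. CEP89 and CEP164, which are assembled onto CEP83 in the same appendage, had changes of -0.03 and 0.14. Reads of CEP89 were 85.4 and 77.8 CPM in DMSO and 77.0 and 82.4 CPM in PA, so its groups overlapped. CEP164 had 98.7 and 90.2 CPM against 105 and 104 CPM. The subdistal members CEP128 and CEP170 had changes of -0.60 and -0.78 and did not pass (adjusted p = 0.243 and 0.238). CEP83 overlaps an antisense gene with 13 to 35 reads in the DMSO libraries and 3 to 14 in the PA libraries, and the strand setting of the counts is not given in the sources used here, so a few of its reads may be misassigned.

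The linker proteins CEP250 and CEP68, which hold the centriole pair together, and the satellite proteins CEP131 and CEP72 had changes of -0.03 to 0.05 at 3 h. CEP250, the core of the linker, had 277 and 229 CPM in DMSO and 242 and 252 CPM in PA, so that its groups overlapped. CEP55, the member with the highest level, had 339 and 399 CPM in DMSO and 173 and 250 CPM in PA. Its groups did not overlap, and its change of -0.80 did not pass (adjusted p = 0.218). The members without a group were CEP70, CEP85L, CEP95 and CEP170B, with changes of -0.91, -1.10, -0.66 and 0.04, none past the threshold.

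**Figure D2:**
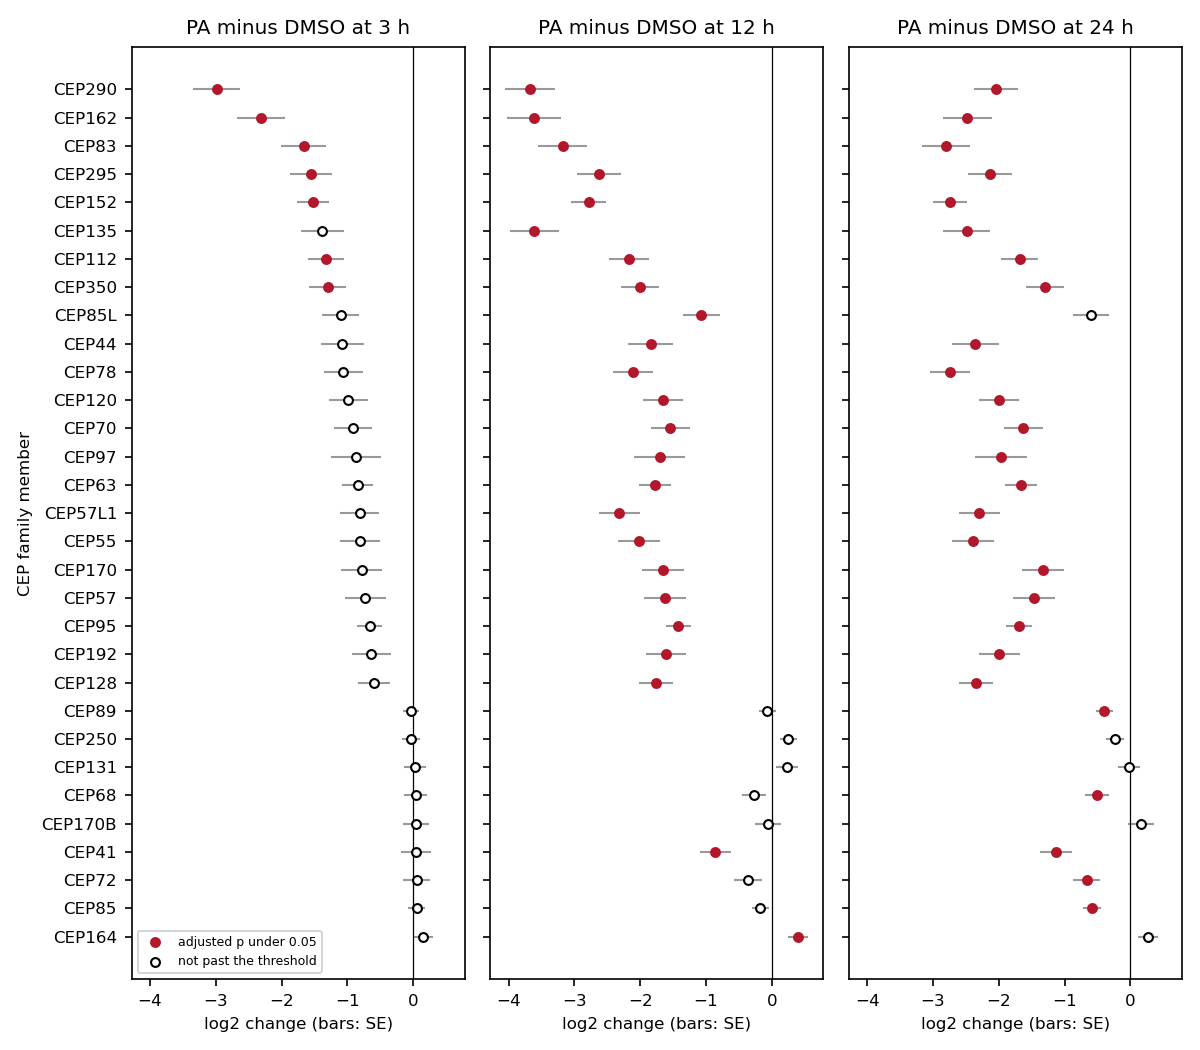
Points are the log2 change of 31 members, PA minus DMSO at the same time, and bars are 1 SE on either side. Filled points passed an adjusted p of 0.05: 7 members at 3 h, 24 at 12 h and 26 at 24 h, all of them below 0 except CEP164 at 12 h.

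Not all of the 3 h calls held when 1 of the 4 libraries was left out. CEP290 passed without any one of them, and its adjusted p stayed under 0.05 in all 15 settings tried. Without PA replicate 1 it was the only one of the 7 to pass. CEP162 then had a change of -1.92 and an adjusted p of 0.166, and CEP152 one of -1.27 and 0.216. Without DMSO replicate 2 CEP162 and CEP290 passed, and without DMSO replicate 1 CEP152, CEP162 and CEP290 did. Without PA replicate 2 all but CEP350 passed. With only the 4 libraries of the 3 h comparison in the fit, 22 members and 1183 genes in all passed. The fit of all 14 libraries had called 7 members and 261 genes in all.

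The 3 h changes left an empty interval: no member lay between -0.60 (CEP128) and -0.03 (CEP89 and CEP250). The division at this interval was made after the values were seen and is a description. Below it were 22 members, and above it 10, among them CEP41, CEP68, CEP72, CEP85, CEP89, CEP131, CEP164, CEP170B and CEP250. The lower 22 had changes of -2.99 to -0.60 with a median of -1.02, and the other 10 had changes of -0.03 to 0.14. The 2 sets differ in a feature that the choice of members did not use. GC content of the longest basic transcript was 35.4 to 45.1% in the lower set (median 39.5%) and 43.4 to 66.2% in the other (median 52.6%), against a median of 48.8% over all tested genes. The ranges overlap between CEP41, with 43.4% GC and a change of 0.04, and CEP95, with 45.1% and -0.66. The lower set was on the low side of the median for all genes throughout. Transcript length was much the same, with medians of 5359 and 5762.5 nt, both above the 3084 nt of all genes. The genomic span had a median of 91.25 kb in the lower set and 46.9 kb in the other.

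Across the 32 members the change at 3 h went with GC content, with Pearson r = 0.72 and Spearman rho = 0.79, while r was -0.10 for the logarithm of transcript length and -0.38 (rho = -0.45) for that of genomic span. Over the 15071 tested genes with a known GC content, r with GC was 0.37 and rho 0.48, and with span they were -0.04 and -0.12. These are correlations across genes measured in the same 4 libraries, so the points are not independent. At 12 h r with GC was 0.80 for members and 0.58 for all genes, and at 24 h it was 0.80 and 0.53. The libraries themselves differed in this respect. Over all genes, the slope of log2 level on GC was -0.06 and -0.22 per 10 percentage points in the DMSO 3 h libraries, and 0.17 and 0.03 in the PA 3 h libraries.

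**Figure D3:**
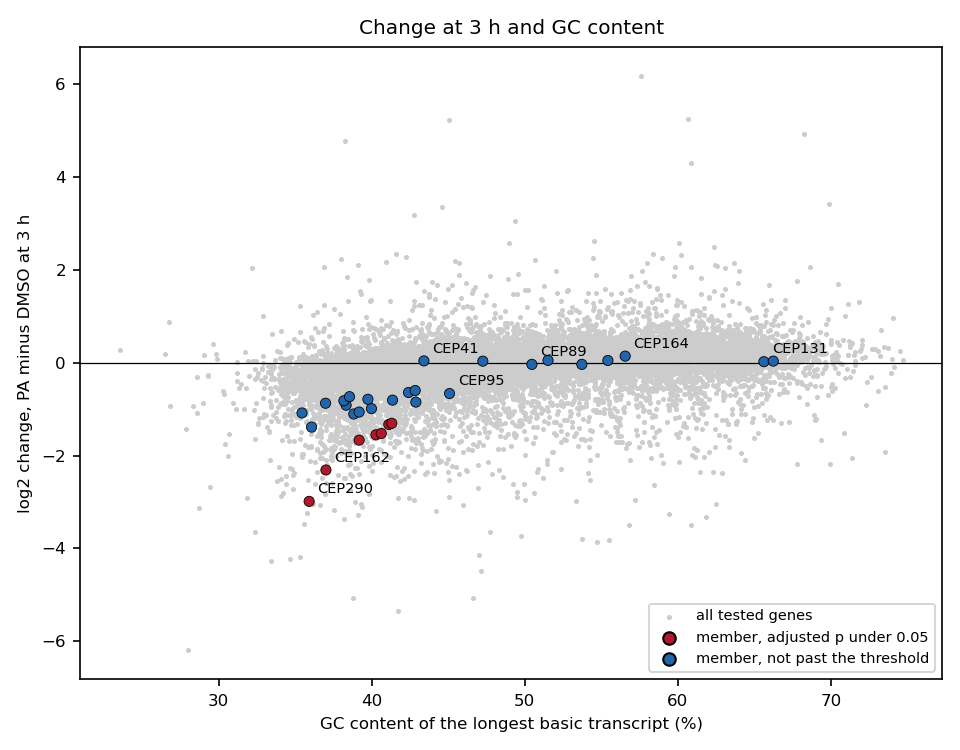
The log2 change at 3 h (PA minus DMSO, vertical axis) is plotted against GC content of the longest basic transcript in percent (horizontal axis) for all tested genes in grey and 31 members in colour. The 7 members past the threshold have 35.9 to 41.3% GC, and the members to the right of CEP95 in the plot lie close to 0.

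The slopes moved with the levels of the members from library to library. In all 22 members of the lower set PA replicate 1 was below replicate 2 at 3 h, and so it was at 12 h. At 24 h replicate 2 was below replicate 1 in 21 of them. The slope was steeper in the same libraries: 0.17 against 0.03 at 3 h and 0.59 against 0.13 at 12 h for replicate 1 against 2, and 0.50 for replicate 2 against 0.34 for replicate 1 at 24 h. The share of all tested genes with the same order of replicates was not counted. The order is therefore not shown to be particular to the family. The part of base composition in the result was not tested. What was computed is the change after a correction of each library for a smooth trend on GC content and transcript length. With it, 12 members fell at 3 h, against a background of 2.5% of genes lower, and 0 rose, against 1.92% higher. All 7 members called before were among the 12, with CEP63, CEP78, CEP95, CEP120 and CEP135 added. All 22 changes of the lower set came nearer to 0. CEP290 had -2.44, CEP162 -1.83 and CEP83 -1.27, while the median of the family went from -0.81 to -0.44, against 0.06 for all genes.

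**Figure D4:**
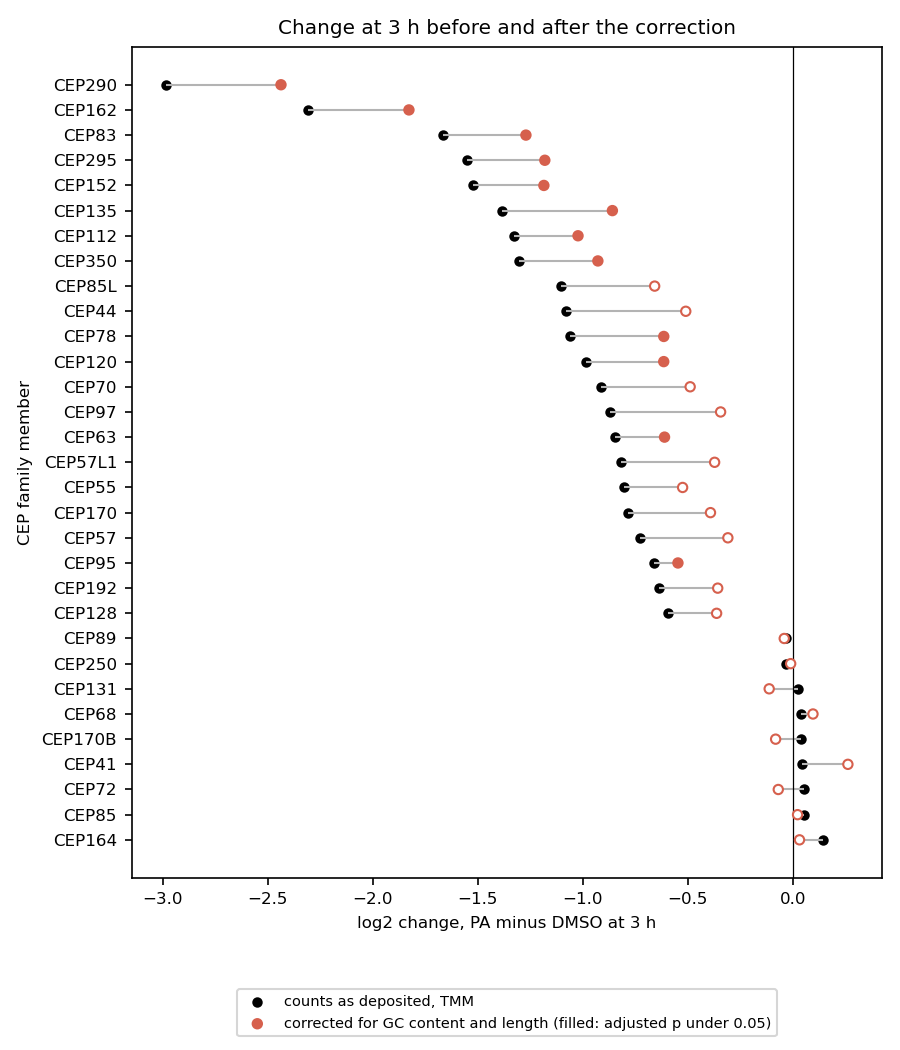
Each line joins the log2 change of 1 of 31 members at 3 h before (black) and after (red) correction for GC content and transcript length, with filled red points for an adjusted p under 0.05 after it. The 22 lower members move towards 0, and CEP290 goes from -2.99 to -2.44.

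Related members did not always move together. CEP170 had a change of -0.78 at 3 h and its paralogue CEP170B one of 0.04. In the same way CEP85L had -1.10 and CEP85 0.05, whereas CEP57 and CEP57L1 had -0.73 and -0.82. These differences between genes were not tested. CEP170 has near-identical pseudogene copies, so its reads are uncertain.

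At 12 h the decrease took in most of the family. In edgeR's test 23 members were lower than in DMSO (background 24.1%) and 1, CEP164, was higher (background 24.4%), where 48.5% of all tested genes were called in either direction. In 27 members both PA libraries were below both DMSO libraries (37.8% of all genes), and in 3 they were above (37.3%). All 22 members of the set that was lower at 3 h were called, with CEP41 in addition. The family's median change was -1.66, against 0.01 over all genes, and its summed level was 924 and 1043 CPM in PA against 1900 and 1875 CPM in DMSO. The sum had been 1204 and 1410 CPM after 3 h of PA.

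The largest falls at 12 h were those of CEP290, CEP162, CEP135, CEP83 and CEP152. CEP290 was at 42.7 and 50.3 CPM in DMSO and 2.77 and 4.5 CPM in PA, a 12.8-fold difference (log2 change -3.67 ± 0.374, adjusted p = 1.56e-05). CEP162 was at 17.4 and 16.5 CPM against 1.19 and 1.57 (-3.61 ± 0.408, adjusted p = 3.41e-05). For CEP135, a cartwheel protein that had missed the threshold at 3 h, the values were 21.5 and 21.3 CPM against 1.19 and 2.32 (-3.61 ± 0.378, adjusted p = 1.93e-05). In each of the 3 genes every PA library was far below every DMSO library. CEP83 had 53.3 and 61.8 CPM against 4.68 and 8.04 (-3.18), and CEP152 had 46.4 and 46.1 CPM against 5.0 and 8.43 (-2.78).

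CEP164, which recruits the kinase that starts cilium assembly, was the one member past the threshold upwards. It had 82.2 and 90.2 CPM in DMSO and 128 and 99.7 CPM in PA, a change of 0.40 ± 0.152 (adjusted p = 0.0409). The call was lost without DMSO replicate 1 (0.214), DMSO replicate 2 (0.0827) or PA replicate 1 (0.321), and after the GC and length correction the change was 0.07. CEP41 had 3.63 and 4.49 CPM in DMSO and 2.09 and 2.39 CPM in PA (-0.86, adjusted p = 0.00933). Its call was lost without DMSO replicate 2 (0.0783) or PA replicate 1 (0.0645). CEP85L passed at -1.07 and did not without PA replicate 1 (-0.76, adjusted p = 0.0554).

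By role, 11 of the 12 duplication and length members were lower at 12 h, the exception being CEP85 at -0.17. Of the appendage members 5 of 7 were lower, and CEP89 stayed at -0.07 with 56.5 and 56.8 CPM against 54.9 and 53.2. Of the 3 distal appendage members CEP83 was thus lower, CEP89 did not pass and CEP164 was higher, and the differences between these genes were not tested. CEP55 fell by 2.02, from 322 and 324 CPM to 48.9 and 111 CPM. Neither linker nor satellite members passed. After correction for GC content and length 25 members were lower and 1 was higher (backgrounds 17.6% and 22.7%), and 21 were lower both before and after it. CEP41 and CEP85L were lost, and CEP72, CEP85, CEP131 and CEP170B were gained. The median change was then -0.82.

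**Figure D5:**
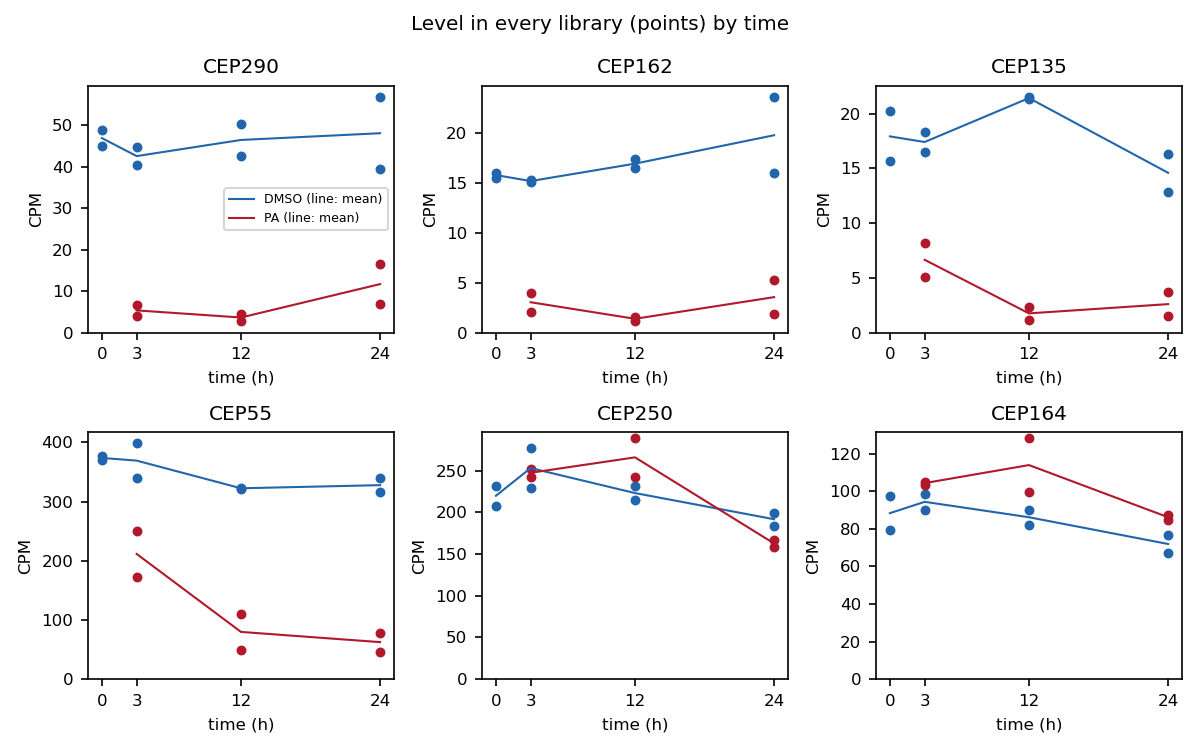
Points are the CPM of single libraries, DMSO in blue and PA in red, against time in hours, with lines through the group means, for 6 members with different courses; each vertical axis starts at 0. CEP290 and CEP162 were already low at 3 h, CEP135 and CEP55 went lower at 12 h, and CEP250 and CEP164 stayed in or above the DMSO range until 12 h.

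The change at 12 h was compared directly with that at 3 h. Only CEP135 passed, with a further log2 change of -2.22 ± 0.492 (edgeR adjusted p = 0.0311), against a background of 0.685% of genes more negative at 12 h. No member passed with a change that was more positive at 12 h (background 2.1%), and 2.79% of genes passed in either direction. Next came CEP152 (-1.26, adjusted p = 0.0674), CEP57L1 (-1.50, 0.0674) and CEP128 (-1.16, 0.078). At an unadjusted p under 0.05 there were 13 members and 3535 of all 15181 tested genes. The changes of the family had medians of -0.81 and -1.66 at the 2 times, and 21 of the 22 lower members had a more negative change at 12 h, CEP85L excepted. For CEP290 the difference was -0.69 ± 0.49 and did not pass (adjusted p = 0.404). CEP135 passed in 2 of 8 fits that left out 1 library, those lacking PA 3 h replicate 1 or PA 12 h replicate 2. In the other fits its adjusted p was between 0.0525 (PA 12 h replicate 1 left out) and 0.174 (PA 3 h replicate 2 left out). Over these 8 fits the further log2 change of CEP135 lay between -2.79 and -1.82.

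At 24 h, 26 members were lower (background 27.5%) and none was higher (background 27.2%), where 54.6% of all tested genes were called in either direction. On the authors' RPKM values (limma on log2(RPKM + 1)) the calls over all genes leaned down, with 2430 higher and 5194 lower, against 4127 and 4169 on the counts. Both PA libraries were below both DMSO libraries in 28 members (40.0% of genes) and above in 1 (39.0%). Of the set that was lower at 3 h, 21 of 22 were called, CEP85L being the exception at -0.60 (adjusted p = 0.0852). The other 5 were CEP41, CEP68, CEP72, CEP85 and CEP89, none of which had passed at 3 h. In all, 22 members were lower at both 12 and 24 h, and all 7 of the 3 h calls were lower at each time. The median change was -1.67, and the family summed to 877 and 727 CPM against 1732 and 1892 CPM in DMSO.

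Across the 32 members the changes at 12 h and 24 h were in much the same order (Spearman rho = 0.89), with shifts among the largest falls by 24 h. The largest falls were those of CEP83, at 10.2 and 4.08 CPM against 45.0 and 54.4 in DMSO (-2.80 ± 0.363, adjusted p = 5.06e-05), and CEP78, which regulates ubiquitination at the centriole, at 12.4 and 6.52 CPM against 60.2 and 66.1 (-2.74 ± 0.31, adjusted p = 1.96e-05). CEP152 followed at 9.06 and 5.68 CPM against 45.2 and 53.3 (-2.74). CEP135 was at 3.7 and 1.5 CPM against 12.8 and 16.3 (-2.49). CEP162 was at 5.22 and 1.88 CPM against 15.9 and 23.6 (-2.48), its 2 PA libraries being further apart than at 12 h. CEP290 was at 16.5 and 6.9 CPM against 39.4 and 56.8 (-2.04 ± 0.339, adjusted p = 0.00028). Both of its PA 24 h libraries lay above both PA 12 h libraries, which had 2.77 and 4.5 CPM. The same order was seen in CEP112 and CEP162, making 3 of the 32 members. Its share over all tested genes was not counted. The difference between the changes at 24 h and 12 h was not tested.

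CEP55 had 78.4 and 46.6 CPM in PA at 24 h, a range that overlaps that of PA at 12 h, and 316 and 339 CPM in DMSO (-2.39 ± 0.319, adjusted p = 6.23e-05). All 12 duplication and length members were lower, including CEP85, with 46.4 and 43.5 CPM against 63.3 and 71.1 (-0.58, adjusted p = 0.00239). Of the appendage members 6 of 7 were lower, the exception being CEP164 at 0.26 (adjusted p = 0.162). CEP89, with 55.4 and 50.6 CPM against 65.9 and 73.2, passed at -0.39 and lost the call without DMSO replicate 2 (0.128) or PA replicate 2 (0.115). CEP68 (-0.50) lost it without DMSO replicate 2 (0.212) or PA replicate 1 (0.208), and CEP72 (-0.66) without DMSO replicate 1 (0.0919) or PA replicate 1 (0.155). After correction for GC content and length 27 members were lower and 1 was higher (backgrounds 22.1% and 27.6%), with a median of -0.93. Of the 27, 24 had been lower before it, while CEP41 and CEP68 lost their calls.

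The named partners of the family were read from 5 lists, which were chosen with earlier results of these data known. Their counts stand beside the shares of all tested genes given above. After 3 h 1.58% of tested genes were lower and 0.138% higher. After 12 h 24.1% were lower and 24.4% higher, and after 24 h 27.5% were lower and 27.2% higher. Among 18 partners in centriole assembly 1 was lower at 3 h, CCDC14 (41.3 and 45.6 CPM in DMSO, 16.8 and 23.3 in PA, -1.12 ± 0.232, adjusted p = 0.0265), while CENPJ, which extends the centriole wall, and SASS6, the hub of the cartwheel, had -1.09 and -1.14 and did not pass (adjusted p = 0.0653 and 0.122). At 12 h and at 24 h 13 of the 18 were lower and 1 higher. Of 18 genes of the pericentriolar material 3 were lower at 3 h. They were AKAP9, a kinase anchor that binds the γ-tubulin complex, from 35.3 and 43.5 to 2.53 and 5.04 CPM (-3.37 ± 0.37, adjusted p = 0.000507), CCDC66 (-1.95) and the satellite scaffold PCM1 (-1.32). The later counts were 13 and 15 lower and 1 higher each time.

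Of 13 measured genes of the linker and appendages 2 were lower at 3 h, and both encode proteins of the distal appendage. ANKRD26 went from 25.0 and 27.3 CPM to 2.56 and 4.77 CPM (-2.83 ± 0.265, adjusted p = 0.000189), and SCLT1 from 44.9 and 51.3 CPM to 14.5 and 20.9 CPM (-1.44 ± 0.237, adjusted p = 0.0067). The third gene named by p, CCDC68, had -0.82 (adjusted p = 0.277). In the later comparisons 6 and 7 were lower and 0 higher. Of 17 measured transition zone genes AHI1 (-1.20, adjusted p = 0.0344) and RPGRIP1L (-0.76, adjusted p = 0.0363) were lower at 3 h, and IQCB1, which binds CEP290, had -0.63 (adjusted p = 0.0532). At 12 h and at 24 h 6 were lower and 1 higher. Among 15 abscission and midbody genes only KIF20B was lower at 3 h, from 112 and 156 CPM to 12.4 and 25.6 CPM (-2.81 ± 0.433, adjusted p = 0.00431). ANLN and KIF23 had -0.92 and -0.64 and did not pass. The later counts were 9 and 11 lower, and 1 and 2 higher.

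The medians of these lists at 3 h were -0.32 for assembly partners, -0.43 for pericentriolar material, -0.28 for linker and appendages, -0.04 for the transition zone and 0.04 for abscission, against -0.01 over all genes. No gene of any of the 5 lists passed upwards at 3 h. With the GC and length correction the medians were 0.01, -0.31, 0.03, -0.06 and 0.00, against 0.06 over all genes. All 5 lists were then below the median of all genes. The lists of assembly partners and of linker and appendages changed sign, as did abscission. The numbers lower at 3 h were then 2, 6, 2, 2 and 1, and 1 abscission gene passed upwards. At 12 h the corrected counts were 10 lower and 3 higher for assembly partners, 15 and 0 for pericentriolar material, 7 and 0 for linker and appendages, 4 and 2 for the transition zone and 10 and 2 for abscission. At 24 h they were 14 and 3, 17 and 0, 9 and 1, 3 and 3, and 11 and 3, in the same order. The transition zone list thus had as many genes higher as lower at 24 h after the correction, against 6 lower and 1 higher before it.

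Promoter sequences were read for motifs known from cell-cycle genes, because CEP55 is expressed around mitosis. The RefSeq table (GRCh38.p14) holds 300 bases, 250 before the transcript start and 50 after it, for 28 of the 32 members. Both strands were searched for the cell-cycle homology region, whose letters are TTTGAA, and for the CCAAT box. An E2F match was any of 4 forms: TTCCCGC was the first form searched, TTTCCCG (which can overlap it) was the next, TTTGGCGC came after these, and TTTCGCGC was the last. TTTGAA was found in 11 of the 28, against 15.43% of the 27305 promoters in the table. CCAAT was found in 15, against 35.7%, and an E2F match in 12, against 10.02%. All 3 occurred together in 5. The 27305 promoters include those of genes that were not tested here, whereas all 32 members were, so the sets compared are unlike. The promoter of CEP55 (chr10:93496362-93496661, plus strand) holds all 3 and that of CEP290 (chr12:88142039-88142338, minus strand) holds TTTGAA alone. Capitals mark the matches, which on the other strand read TTCAAA for the first motif.
CEP55: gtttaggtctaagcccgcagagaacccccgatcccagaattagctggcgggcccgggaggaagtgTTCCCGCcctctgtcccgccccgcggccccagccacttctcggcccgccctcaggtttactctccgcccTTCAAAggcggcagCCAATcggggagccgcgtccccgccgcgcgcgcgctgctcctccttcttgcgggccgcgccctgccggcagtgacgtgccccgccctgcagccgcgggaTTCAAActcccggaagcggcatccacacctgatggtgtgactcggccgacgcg
CEP290: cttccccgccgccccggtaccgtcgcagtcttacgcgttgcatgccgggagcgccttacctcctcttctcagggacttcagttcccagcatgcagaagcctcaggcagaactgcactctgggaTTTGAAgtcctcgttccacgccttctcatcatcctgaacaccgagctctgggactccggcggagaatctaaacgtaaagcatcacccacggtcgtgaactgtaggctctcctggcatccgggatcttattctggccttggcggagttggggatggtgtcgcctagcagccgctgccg

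The matches were also counted on either side of the division seen at 3 h. TTTGAA was found in 9 of 21 lower members with a promoter and in 2 of 7 of the others, CCAAT in 9 and 6, and an E2F match in 9 and 3. These counts are small and were not tested. A match is a description of the sequence and not a binding site.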

How the data were processed

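Per the submitters' processing notes TopHat2, edgeR and the GRCh38 build were used; how reads were counted and with which strand setting is not given in the sources used here. The deposited counts are whole reads per gene without normalization, for 28120 genes, and the RPKM values, made by the authors, cover 25447 of them. An extra empty field in 8163 lines of the counts and 6581 of the RPKM table was removed.

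Counts from all 14 libraries were fitted together in edgeR 4.0.16 (R 4.3.3) with TMM scaling, filterByExpr by group and 1 mean per group. This left 15181 genes and 7 residual degrees of freedom, with a biological coefficient of variation of 15.1%. The quasi-likelihood test was two-sided, and p-values were adjusted over every tested gene (Benjamini-Hochberg) and called under 0.05. Each SE is the size of the log2 change over the root of its F value. GC content and length came from the longest basic GENCODE 29 transcript, for 15071 tested genes, and were removed in an alternative fit by offsets from splines with 5 degrees of freedom. Scripts were tested on simulated data.

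The members, roles and lists were chosen with earlier results of these data known. Values in every library are given for all members called at 3 h, the 5 largest falls and rises called at 12 and 24 h, up to 4 members by p for the other comparisons, and up to 3 genes by p at 3 h for each list. Other members were named after their values were seen, and 1 member is counted but not reported here by name. Alternatives were DESeq2 1.42.0, its size factors, other filters, limma 3.58.1 on log2(RPKM + 1) and log2(RPKM + 0.1), a replicate block, the correction and each library left out.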

Additional observations from a re-analysis of the deposited data

Results flagged for a closer look

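The change of CEP135, a cartwheel protein, differed between the times. PA minus DMSO was -1.38 at 3 h and -3.61 at 12 h, and the difference of -2.22 on the log2 scale passed edgeR's test of that difference (adjusted p = 0.0311). It passed in 2 of 8 fits without 1 library. In a group of 2 libraries it could not be told which of them stood apart. The PA 12 h libraries, on which the later change rests, were the least alike of any group. Their Spearman correlation over all tested genes was 0.978, against 0.989 to 0.996 in the other groups.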

How the results depend on the processing

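The 22 members lower at 3 h kept their sign at 3 h in all 15 settings, and CEP290 kept its call. At 3 h 7 members and 261 genes (21 higher, 240 lower) had passed. DESeq2 gave 12 members and 582 genes (161 higher, 421 lower), no filter on low counts 21 and 1115, the GC and length correction 12 and 672 (292 higher, 380 lower), that correction with the replicate block 11 and 530, the 4 libraries alone 22 and 1183, limma on log2(RPKM + 1) 3 and 116, and limma on log2(RPKM + 0.1) 1 and 96. Leaving out 1 library gave 1 to 6 members and 28 to 182 genes. At 12 h 7363 genes had passed, the 4 libraries alone gave 3671, and leaving out 1 library gave 4462 to 8673. For the difference between 12 h and 3 h, with 1 member and 423 genes (319 higher, 104 lower), DESeq2 gave 6 and 1208 (724 higher, 484 lower), no filter 14 and 1808, the correction 5 and 1074 (550 higher, 524 lower), the correction with the block 3 and 915, limma 0 and 179 with a pseudocount of 1, 0 and 134 with 0.1, and 3 members with RPKM filtered at 1. Leaving out 1 library gave 0 to 19 members and 43 to 4957 genes, the highest of both without PA 12 h replicate 2. Between DMSO at 3 h and 0 h 0 genes had passed, no filter gave 11, and limma 14 and 17. With the correction CEP131 at 12 h turned from 0.23 to -0.49 (-0.49 with the block) and CEP170B at 24 h from 0.16 to -0.48 (-0.49 with the block); the cause was not tested. At 24 h limma gave 2430 genes higher and 5194 lower with a pseudocount of 1 and 2332 and 5179 with 0.1, and filtering RPKM moved the median of all genes to -0.24. Libraries with the same replicate number were not treated as pairs in the main fit. Their deviations correlated over 0.1 in 2 of 21 comparisons of groups (range -0.18 to 0.21). Such correlations cannot settle whether these libraries were handled together. A replicate block left 6 members called at 3 h, CEP350 losing its call (adjusted p = 0.0552), as did CEP164 at 12 h (0.0553).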

Other observations

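Some genes now named CEP appear in the table under older symbols and were therefore not members. KIAA1377, now CEP126, had changes of -1.36 at 3 h (edgeR adjusted p = 0.0156), -2.57 at 12 h and -2.27 at 24 h. FOPNL, now CEP20, had -0.18 (adjusted p = 0.606), -0.87 and -1.14, and FGFR1OP, now CEP43, had -0.28 (adjusted p = 0.393), -1.07 and -1.20. The changes at 12 and 24 h passed the threshold in all 3 genes.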
